A study of Mus musculus with 12 samples.

Results

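The 9 genes described here encode the MHC class I molecules of the mouse and the machinery that supplies them with peptide. They were taken by symbol from a table of raw counts with 49585 genes, which lists each of the 9 on 1 row, and all 9 had enough counts to be tested. The tissue was whole lung of C57BL/6J mice carrying an MO4 melanoma, a mouse melanoma line, under the skin. All mice, controls included, had been given the tumour. The groups held 3 libraries each. The combination group consisted of animals aged 22 months treated with antibodies against the checkpoint receptor PD-1 and against the IL-21 receptor. Aged anti-PD-1 animals, also 22 months old, had anti-PD-1 without the other antibody. Aged control animals of 22 months had a rat antibody of matching isotype instead. Young anti-PD-1 animals were 2 months old and had anti-PD-1. Antibodies were injected into the peritoneum. The labels give days 3, 7 and 11 after inoculation as the injection days for anti-PD-1 and control antibody. No young mice with control antibody are among the 12 libraries, so an age difference can be read only under anti-PD-1. Whether every library is a different mouse is not stated in the labels, and p-values therefore measure only the spread between these samples, which may be technical.

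Class I molecules sit on nearly all nucleated cells and show CD8 T cells fragments of the proteins made inside. Each is a heavy chain paired with beta-2-microglobulin. In this strain H2-K1 and H2-D1 encode the classical heavy chains, and B2m encodes the shared light chain. Peptides are cut in the cytosol by the proteasome, whose catalytic subunits can be exchanged for Psmb8 and Psmb9 in the immunoproteasome. Tap1 and Tap2 form the transporter that carries peptides into the endoplasmic reticulum, where tapasin, the product of Tapbp, tethers the transporter to empty class I molecules. Nlrc5 encodes a nuclear NLR protein that binds no DNA itself and is recruited to class I promoters by factors bound at their X and Y boxes. Interferon gamma raises transcription of the whole group in many cell types, and lung endothelium, epithelium and leukocytes all carry class I.

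Promoter sequences of the heavy chain and light chain genes are shown because the elements through which the group is regulated lie close together there. RefSeq start sites (GRCm38.p6) were found for 7 of the 9 genes, and each window runs from 250 bases before to 50 bases after the start. For H2-K1 2 starts were listed and the first was used. Counted from the start used, TGACG lies at -41 in H2-K1 and at -101 in H2-D1, so these 2 windows are not cut at matching places. Capitals mark matches to a core of NF-kappa B sites (GGG and CCC with any 4 bases between them), a match to AANNGAAA, the core of an interferon-stimulated element, on either strand, and the pair TGACG and ATTGG, the X2 core and the Y box read on the opposite strand, where exactly 20 bases part them. All sequences are written 5′ to 3′ along the strand of the gene.
H2-K1 (chr17:34000298-34000597, minus strand): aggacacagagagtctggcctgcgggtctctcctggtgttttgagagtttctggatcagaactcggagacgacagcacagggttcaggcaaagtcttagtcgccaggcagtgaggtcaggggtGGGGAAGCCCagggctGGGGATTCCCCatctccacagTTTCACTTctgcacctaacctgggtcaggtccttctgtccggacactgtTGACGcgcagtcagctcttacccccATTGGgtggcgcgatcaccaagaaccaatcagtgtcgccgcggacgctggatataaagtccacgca
H2-D1 (chr17:35262844-35263143, plus strand): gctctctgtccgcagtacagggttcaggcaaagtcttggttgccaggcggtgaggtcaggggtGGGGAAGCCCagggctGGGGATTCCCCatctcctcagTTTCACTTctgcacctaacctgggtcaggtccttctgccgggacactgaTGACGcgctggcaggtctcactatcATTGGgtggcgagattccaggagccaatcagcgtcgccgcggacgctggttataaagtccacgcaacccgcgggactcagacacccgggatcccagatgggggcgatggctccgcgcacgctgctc
B2m (chr2:122147437-122147736, plus strand): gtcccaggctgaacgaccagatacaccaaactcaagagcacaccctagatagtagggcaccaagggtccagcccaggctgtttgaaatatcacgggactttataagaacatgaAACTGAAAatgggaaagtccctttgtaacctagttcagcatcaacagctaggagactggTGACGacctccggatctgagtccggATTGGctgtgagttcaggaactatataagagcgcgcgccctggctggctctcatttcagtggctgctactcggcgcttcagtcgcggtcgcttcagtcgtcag
The pair with its 20-base spacing was present in 31 of 32851 promoter windows (0.0944%), among them those of H2-K1, H2-D1, B2m and the nonclassical heavy chain gene H2-M3. The spacing was noticed on reading these 3 sequences, so its rarity is a description. The NF-kappa B core was present in 11.9% of windows and AANNGAAA in 23.9%, both searched on both strands. In H2-K1 and H2-D1 overlapping matches to that core fill the palindrome known as the H2-K kappa B site, and a further match lies just upstream. The B2m window holds none. On their own TGACG was present in 20.8% and CCAAT, the Y box, in 37.4%. Over the 120 bases that end at the Y box, H2-K1 and H2-D1 were identical at 109 positions, while B2m shared 47 with H2-K1 and 46 with H2-D1. Tap1 and Psmb9 start back to back: their windows share 275 bases. Within the shared stretch Tap1 and Psmb9 hold the same TGACG and the same Y box, read from opposite strands, without the 20-base spacing. Tapbp holds Y boxes only. Psmb8 holds a match to TTCNNNGAA, the gamma-activated site, which was present in 8.30% of windows. Tap2 and Nlrc5 are named only.

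The lung origin of the libraries was plain from the surfactant and other epithelial markers, whose summed level over 9 genes ran from 28922 to 56839 CPM, counts scaled to library size, over the 12 libraries. Counted reads per library ran from 16021877 to 22058620. The scaling is by the TMM method throughout. Libraries of 1 group differed by more than counting noise, with a chi-square per degree of freedom of 8.97 to 44.4 between them. Of the 6 melanocyte and melanoma markers, Tyr, Dct, Tyrp1 and Sox10 were too low to be tested. Their summed level with Pmel and Mlana was 5.51 to 7.04 CPM in the combination group, 4.20 to 6.79 in aged anti-PD-1, 6.36 to 9.71 in the aged control and 4.05 to 8.28 in the young anti-PD-1 group.

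Levels of the 9 genes differed widely. Per kilobase of annotated exon, B2m (ENSMUSG00000060802, chr2:122147686-122153083, plus strand, mm10) stood first in every library, between 2249 and 3764 CPM per kilobase. H2-D1 (ENSMUSG00000073411, chr17:35262730-35267499, plus strand) followed at 547 to 949 and H2-K1 (ENSMUSG00000061232, chr17:33996017-34000333, minus strand) at 412 to 816 CPM per kilobase. Then came Tapbp (ENSMUSG00000024308, chr17:33915899-33929288, plus strand) at 58.1 to 88.2, Psmb8 (ENSMUSG00000024338, chr17:34197721-34201454, plus strand) at 27.6 to 58.5 and Tap2 (ENSMUSG00000024339, chr17:34203527-34216321, plus strand) at 22.6 to 34.3 CPM per kilobase. Psmb9 (ENSMUSG00000096727, chr17:34181988-34187764, minus strand) ran from 15.2 to 30.1, Tap1 (ENSMUSG00000037321, chr17:34187553-34197225, plus strand) from 12.8 to 24.1 and Nlrc5 (ENSMUSG00000074151, chr8:94434356-94527272, plus strand) from 3.41 to 8.47 CPM per kilobase. This order was the same in all 12 libraries, although the ranges of neighbours overlapped over libraries at 5 of 8 steps, from H2-D1 to H2-K1 and at each step from Tapbp to Tap1. The separations between B2m and H2-D1, between H2-K1 and Tapbp and between Tap1 and Nlrc5 were complete. Exon lengths are the union of all annotated transcripts, retained introns included, so levels between genes are approximate.

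Nlrc5, the transactivator, had 62.4, 37.9 and 37.5 CPM in the combination libraries (replicates 1, 2 and 3 in that order, here and below), 47.2, 51.2 and 72.0 in the aged anti-PD-1 libraries, 29.0, 36.8 and 33.3 in the aged control libraries and 36.1, 32.3 and 30.9 in the young anti-PD-1 libraries. Every aged anti-PD-1 library was above every aged control and every young library, and so was every combination library, 2 of them narrowly. H2-K1 had 1818, 1502 and 1349 CPM in the combination group, 1950.0, 1888 and 2396 in aged anti-PD-1 lungs, 1569, 1641 and 1639 in the aged control group and 1651, 1210.1 and 1271 in the young anti-PD-1 group. The 3 aged anti-PD-1 libraries were the 3 highest of the 12. H2-D1 had 2246, 2129 and 1878 CPM in the combination group, 2080.0, 1799 and 2262 in aged anti-PD-1 lungs, 1912, 2448 and 2137 in the aged control group and 1832, 1409.6 and 1595 in the young anti-PD-1 group. Here the 3 aged groups lay over each other. The young libraries were below every combination and control library and, except for their highest, below every aged anti-PD-1 library. B2m, the light chain gene, had 2763, 1965 and 1934 CPM in the combination group, 2805, 2498 and 3237 in aged anti-PD-1 lungs, 2348, 2566 and 2206 in the aged control group and 2665, 2076 and 2087 in the young anti-PD-1 group. All 4 groups overlapped, with the highest value in aged anti-PD-1 replicate 3 and the lowest in combination replicates 2 and 3.

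Among the processing genes, Psmb8 had 182, 166 and 123 CPM in the combination group, 134, 133 and 198 in aged anti-PD-1 lungs, 123, 144 and 123 in the aged control group and 126, 93.4 and 97.9 in the young anti-PD-1 group. Psmb9 had 97.0, 84.0 and 65.4 CPM in the combination group, 71.4, 81.2 and 110.0 in aged anti-PD-1 lungs, 61.5, 67.6 and 57.0 in the aged control group and 78.1, 56.3 and 55.5 in the young anti-PD-1 group. For both subunits the highest library was aged anti-PD-1 replicate 3, followed by combination replicate 1. The transporter gene Tap1 had 132, 83.8 and 70.0 CPM in the combination group, 96.6, 108 and 130.5 in aged anti-PD-1 lungs, 72.1, 81.9 and 71.3 in the aged control group and 103, 70.6 and 73.1 in the young anti-PD-1 group. Its partner Tap2 had 127, 98.2 and 87.0 CPM in the combination group, 117, 116 and 129.6 in aged anti-PD-1 lungs, 111, 103 and 99.02 in the aged control group and 112, 85.3 and 89.7 in the young anti-PD-1 group. Tap1 spread more than Tap2: combination replicate 1 was the highest of all for Tap1 and combination replicate 3 the lowest. Tapbp had 294, 233 and 211 CPM in the combination group, 261, 259 and 320.0 in aged anti-PD-1 lungs, 275, 240.4 and 234 in the aged control group and 267, 247 and 244 in the young anti-PD-1 group, with all 4 groups overlapping.

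**Figure D1:**
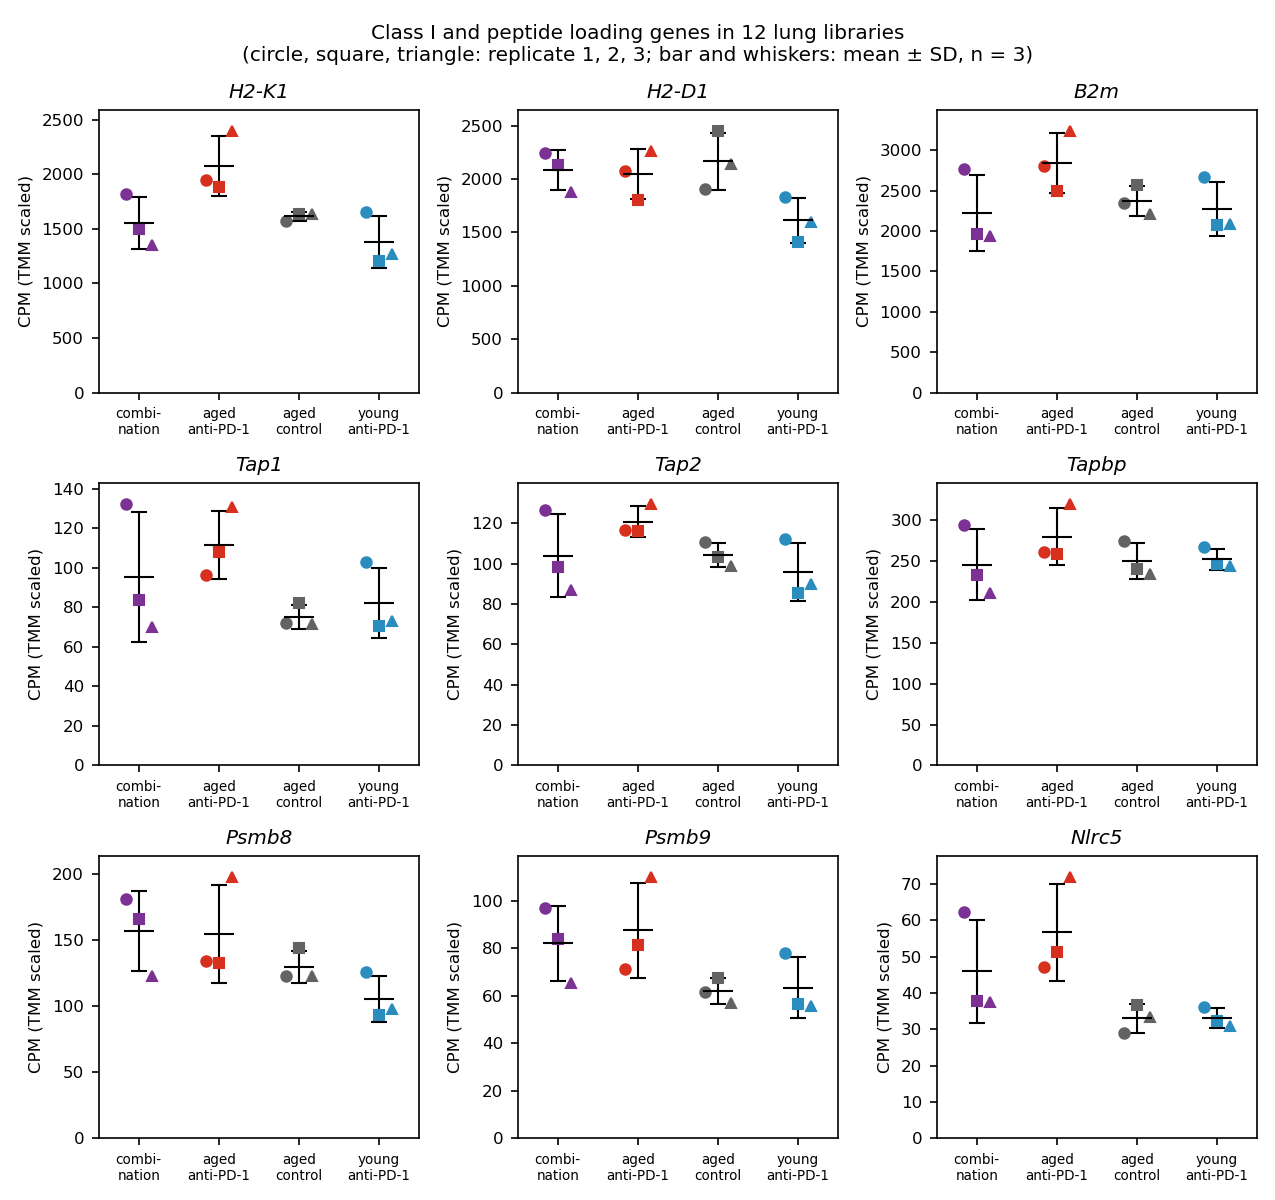
Level of each of the 9 genes in CPM (y axis, from 0) in the 12 libraries, by group (x axis); symbols are replicates 1, 2 and 3, bars and whiskers the mean ± SD (n = 3). Aged anti-PD-1 replicate 3 is the highest library of its group in all 9 panels, and H2-K1 and Nlrc5 in aged anti-PD-1 lungs lie above the aged control and the young libraries.

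By mean, 7 of the 9 genes were highest in aged anti-PD-1 lungs. Psmb8 was highest in the combination group (157 ± 30.2 CPM, against 155 ± 37.2 in aged anti-PD-1 lungs) and H2-D1 in the aged control group (2166 ± 269.6 CPM, SD, n = 3). None was lowest in aged anti-PD-1 lungs, 2 were lowest in the combination, 3 in the aged control and 4 in the young anti-PD-1 group. Set in order within each gene, neighbouring groups overlapped in 24 of 27 cases. The 3 exceptions were H2-K1 and Tap2 between the aged anti-PD-1 and aged control groups, and Nlrc5 between the combination and young groups. Neither the order of means nor this overlap was counted over all genes, so these counts only describe the members.

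The first comparison set aged against young lungs under the same anti-PD-1 treatment. Nlrc5 and H2-K1 rose in the aged mice, and no member fell. Nlrc5 averaged 56.8 ± 13.3 CPM in aged and 33.1 ± 2.65 CPM in young mice given anti-PD-1 (SD, n = 3 each), and H2-K1 averaged 2078 ± 277 CPM in aged and 1377 ± 239 CPM in young mice. On the log2 scale (± SE) the fitted differences were 0.78 ± 0.20 for Nlrc5 and 0.59 ± 0.15 for H2-K1, each with an edgeR adjusted p of 0.0200. A gene is called here where the edgeR quasi-likelihood adjusted p, over all 18556 genes tested, is under 0.05. Thus 2 of 9 members were called higher and 0 lower, beside 8.09% of all genes called higher, 7.16% called lower and 15.3% called either way. Psmb8 missed the threshold at 0.55 ± 0.18 (edgeR adjusted p 0.0534).

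The remaining members had positive differences that were not called. They were 0.47 ± 0.18 for Psmb9, 0.44 ± 0.21 for Tap1 and 0.34 ± 0.14 for Tap2. For H2-D1 the difference was 0.34 ± 0.14, for B2m 0.32 ± 0.17, and for Tapbp 0.15 ± 0.13. All 9 differences were positive under every scaling tried, whereas 49.3% of all genes tested had a positive difference, and the median was 0.44 for the members and -0.01 for all genes. The aged anti-PD-1 libraries lay wholly above the young ones for 4 members, H2-K1, Tap2, Psmb8 and Nlrc5, beside 19.7% of all genes, and wholly below them for 0, beside 19.9%. At an unadjusted p under 0.05 there were 6 of 9 members, beside 29.5% of all genes. Both calls rested on few libraries. Without aged anti-PD-1 replicate 3 the edgeR adjusted p was 0.0944 for H2-K1 and 0.0943 for Nlrc5, without young replicate 2 it was 0.0934 and 0.0703, and without young replicate 3 it was 0.0815 and 0.0778. Without any filter on low counts Nlrc5 was also not called (edgeR adjusted p 0.0592).

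Some of the other class I heavy chain genes rose in the aged mice as well. Of 22 listed, 17 were tested, and 6 rose and 0 fell, with a median difference of 0.39. The nonclassical genes H2-T10 (0.71 ± 0.14, edgeR adjusted p 0.00461) and H2-T24 (0.71 ± 0.16, 0.0107) were among them, with H2-Q6 (0.68 ± 0.17, 0.0192) and H2-M2. H2-M2 was scarce and uneven, with 3.28, 4.42 and 21.4 CPM in the aged and 0.411, 0.450 and 0.784 CPM in the young anti-PD-1 libraries. Its difference of 4.13 ± 0.67 stayed called without any 1 library, at 2.80 to 4.55. H2-T24 was not called without young replicate 3 (edgeR adjusted p 0.0505), and H2-Q6 was not called without aged anti-PD-1 replicate 3, young replicate 2 or young replicate 3 (highest edgeR adjusted p 0.0879). H2-T3, H2-Bl, H2-M9 and H2-M10.1 were too low to be tested and H2-T9 was not matched. Heavy chain genes of this family are near-identical over long stretches, so the split of reads between them, H2-K1 and H2-D1 included, is uncertain.

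The class II genes, which present peptides from outside the cell to CD4 T cells, had larger fitted differences. All 11 rose, with a median difference of 0.84, and all 11 exceeded the median of the class I members. Ciita, the class II counterpart of Nlrc5, differed by 1.39 ± 0.23 (edgeR adjusted p 0.00220), with 29.5, 30.2 and 42.4 CPM in aged and 16.02, 12.3 and 10.6 CPM in young mice. H2-Eb2 differed by 1.59 ± 0.25, H2-Oa by 1.07 ± 0.17 and H2-Eb1 by 0.91 ± 0.18. The 2 lists share libraries and were not tested against each other. Class II genes are made mainly by B cells, dendritic cells and macrophages. Leukocyte markers moved with this comparison: 4 of 5 rose, and their summed level was 1374 to 1709 CPM in aged and 1006 to 1049.7 CPM in young mice given anti-PD-1. Of 6 B cell markers 5 rose (357 to 391 CPM in aged, 174 to 214 CPM in young), of 7 dendritic cell markers 4 rose (119.6 to 166 CPM in aged, 85.8 to 102 CPM in young) and of 9 T cell markers 3 rose (86.6 to 200.2 CPM in aged, 86.0 to 109 CPM in young). Of 9 epithelial markers 7 fell (28922 to 33491 CPM in aged, 44037 to 56839 CPM in young). Of 6 NK cell markers 1 rose and 1 fell and of 8 macrophage and monocyte markers 1 rose, while no blood endothelial, fibroblast or melanocyte marker was called. None of the immune, endothelial, fibroblast and epithelial markers was at 0 in any library. Their part in the difference of Nlrc5 and H2-K1 was not tested, and in whole lung a change in the number of cells of a type cannot be told apart from a change in RNA per cell.

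Few of the genes that work beside the members were called with age. Neither edgeR, DESeq2 nor limma-voom called any of the 8 genes for peptide loading and trimming, the 4 that complete the immunoproteasome or the 6 of the interferon gamma pathway, and 0 of these had an unadjusted p under 0.05. Nearest to a call among the loading genes were Tapbpl, a tapasin relative (0.12 ± 0.11, edgeR adjusted p 0.511), and the chaperone gene Hspa5 (0.16 ± 0.17, 0.549). Of the immunoproteasome partners, the catalytic subunit gene Psmb10 stood at 0.24 ± 0.18 and the activator gene Psme1 at 0.07 ± 0.14. Of 14 constitutive proteasome genes 1 fell, Psma3 (-0.35 ± 0.09, edgeR adjusted p 0.0191), and the median of the list was -0.19. Of 17 transcriptional regulators, Nfya, a Y box factor (0.53 ± 0.13), and Creb1, which binds the X2 element (0.43 ± 0.10), rose, and Nfyc, another Y box factor (-0.33 ± 0.10), fell. In the interferon gamma pathway Jak1 stood at 0.20 ± 0.12 and Ifngr1 at 0.17 ± 0.11. Of 14 genes tested on the class I receptor list, Pirb, an inhibitory receptor of myeloid and B cells, rose (0.86 ± 0.14, edgeR adjusted p 0.00192). Psma3, Nfya, Creb1 and Nfyc each lost the call without at least 1 library, with highest edgeR adjusted p values of 0.122, 0.0630, 0.0505 and 0.204.

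**Figure D2:**
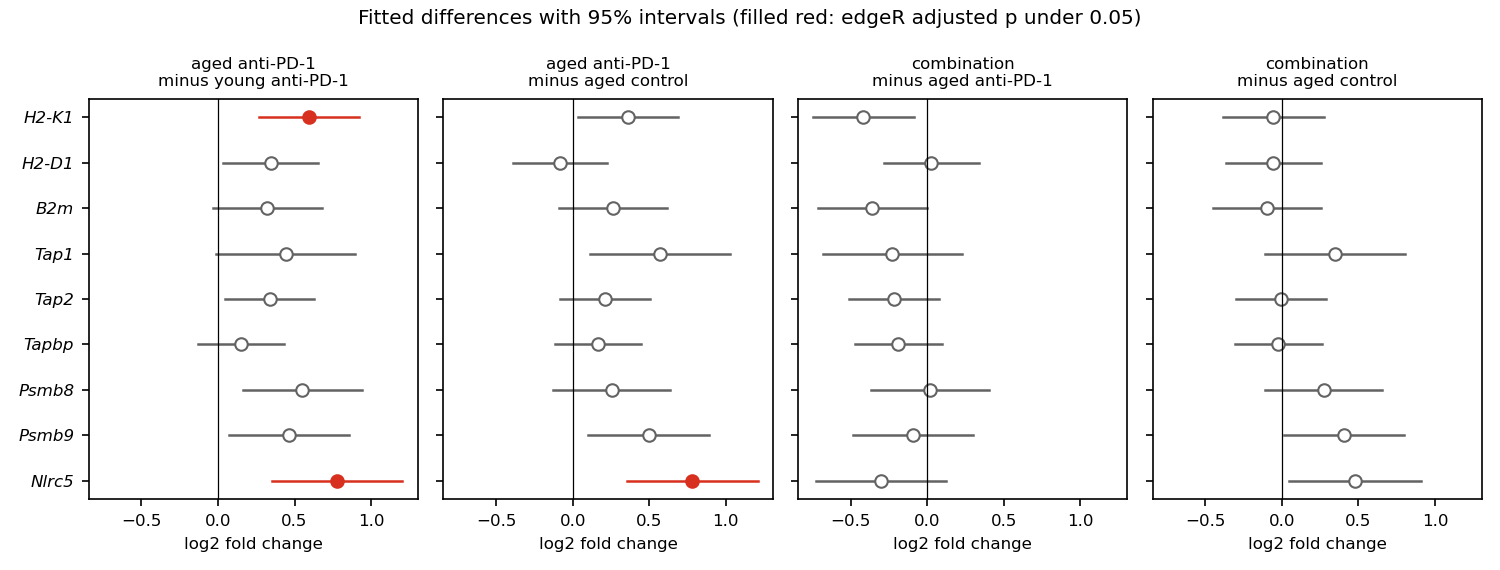
Fitted log2 fold change of each of the 9 genes (x axis) with its 95% interval in the 4 comparisons (panels); filled red marks an edgeR adjusted p under 0.05. H2-K1 (0.59) and Nlrc5 (0.78) are filled in the first panel and Nlrc5 (0.78) in the second, and no gene is filled in the others.

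The second comparison set aged mice given anti-PD-1 against aged mice given control antibody. Nlrc5 rose and was the 1 member called, with 56.8 ± 13.3 CPM under anti-PD-1 and 33.0 ± 3.91 CPM under control antibody (SD, n = 3 each). Its difference was 0.78 ± 0.20 (edgeR adjusted p 0.0273, 95% interval 0.35 to 1.21). Of all genes, 5.34% were called higher, 5.58% lower and 10.9% either way, beside 1 of 9 members. This call was lost without any 1 of 5 of the 6 libraries: the edgeR adjusted p was 0.101 without aged anti-PD-1 replicate 3, 0.0502 without its replicate 2, and 0.0730, 0.0590 and 0.0592 without control replicate 1, 2 or 3. It was also lost without the filter on low counts (0.0680). The aged anti-PD-1 libraries are shared with the first comparison, so the 2 results on Nlrc5 are not independent of each other.

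Tap1 (0.57 ± 0.21, edgeR adjusted p 0.0953) and Psmb9 (0.50 ± 0.18, 0.0931) came next without being called. H2-K1 stood at 0.36 ± 0.15 and H2-D1, the other classical heavy chain gene, at -0.08 ± 0.14. B2m stood at 0.26 ± 0.17, Psmb8 at 0.25 ± 0.18, Tap2 at 0.21 ± 0.14 and Tapbp at 0.17 ± 0.13. The difference of H2-D1 was the 1 negative value, so that 8 of 9 were positive, beside 48.2% of all genes, and with library totals alone it was 0.02. The libraries of the 2 groups were wholly apart, anti-PD-1 above, for H2-K1, Tap1, Tap2, Psmb9 and Nlrc5, which is 5 of 9 beside 16.1% of all genes. At an unadjusted p under 0.05 there were 4 of 9 members, beside 28.9% of all genes. The median was 0.26 for the members and -0.02 for all genes.

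Among the genes around the pathway, the trimming aminopeptidase gene Erap1 rose (0.57 ± 0.14, edgeR adjusted p 0.0210), with 50.5, 44.9 and 59.4 CPM under anti-PD-1 and 30.7, 36.6 and 36.9 CPM under control antibody. Tapbpl rose too (0.38 ± 0.11, edgeR adjusted p 0.0430), so that 2 of 8 loading and trimming genes were higher and 0 lower. Among the regulators reported here, Creb1 (0.54 ± 0.10) rose, and the NF-kappa B genes Relb (-0.51 ± 0.10) and Rela (-0.36 ± 0.09) fell. Creb1 and Relb kept their calls without any 1 library. Erap1 lost its call without aged anti-PD-1 replicate 3 or control replicate 2 (highest edgeR adjusted p 0.0824), Rela without 5 of the 6 libraries (0.0799), and Tapbpl without any 1 of the 6 (0.166). Ifng, the interferon gamma gene, had 1.97, 1.66 and 3.34 CPM under anti-PD-1 and 1.71, 6.88 and 1.603 CPM under control antibody, and edgeR, DESeq2 and limma-voom called 0 of the 6 genes of its pathway (1 at an unadjusted p under 0.05), with Socs1, a feedback inhibitor, at -0.65 ± 0.29 and Ifngr1 at -0.23 ± 0.11.

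Of 17 other heavy chain genes H2-M2 rose (2.20 ± 0.58) and H2-Q10, whose product is secreted, fell (-0.92 ± 0.21, edgeR adjusted p 0.0180), with 21.4, 30.2 and 18.2 CPM under anti-PD-1 and 39.2, 56.0 and 36.3 CPM under control antibody. The difference of H2-M2 was 0.87 without aged anti-PD-1 replicate 3, where it had its 1 high value, and its call was lost without that library or any control library (highest edgeR adjusted p 0.105). H2-Q10 lost its call without aged anti-PD-1 replicate 1 or 3 or control replicate 2 (highest 0.0659). Psma6 was the 1 constitutive proteasome gene called (-0.36 ± 0.11, lower, lost without 5 of the 6 libraries), and the list's median was -0.25. Of the 4 immunoproteasome partners 0 were called by edgeR, DESeq2 or limma-voom and 0 had an unadjusted p under 0.05, Pomp, its assembly factor, standing at -0.15 ± 0.10 and Psmb10 at 0.22 ± 0.18. Of 14 genes on the class I receptor list Klrc2, an activating NK receptor that sees a nonclassical class I molecule, rose (0.99 ± 0.30). Lilrb4a, an inhibitory receptor of myeloid cells on the same list, fell (-0.84 ± 0.23). Whether Lilrb4a binds class I was not examined here, so its value is not one of class I recognition. Klrc2 lost its call without any 1 library and Lilrb4a without 5 of 6. Of 11 class II genes 2 rose, Ciita (1.24 ± 0.23) and H2-Eb2 (0.97 ± 0.25), the second not without aged anti-PD-1 replicate 2 or 3 or control replicate 2. Blood endothelial markers moved with this comparison: 5 of 6 rose, and their summed level was 1660.4 to 1989.9 CPM under anti-PD-1 and 931 to 1553 CPM under control antibody. Of 5 leukocyte markers 1 fell (1374 to 1709 CPM under anti-PD-1, 1435 to 2092 CPM under control antibody). Of 7 dendritic cell markers 2 rose and 1 fell (119.6 to 166 CPM under anti-PD-1, 76.7 to 108 CPM under control antibody). Of 6 B cell markers Ms4a1 rose (0.91 ± 0.23), and the summed levels did not overlap (357 to 391 CPM under anti-PD-1, 178 to 340.4 CPM under control antibody). Of 5 fibroblast markers Dcn fell (-0.70 ± 0.14), with overlapping sums (929.9 to 1417 CPM under anti-PD-1, 1142 to 1711 CPM under control antibody). Of the 2 melanocyte and melanoma markers tested Mlana fell (-0.92 ± 0.26). Mlana was scarce, with 1.55, 2.87 and 2.04 CPM under anti-PD-1 and 4.31, 4.23 and 3.69 CPM under control antibody. The other, Pmel, was not called (-0.12 ± 0.35, edgeR adjusted p 0.858). No T cell, NK cell, macrophage and monocyte or epithelial marker was called by edgeR, with an unadjusted p under 0.05 for 0 of 9, 2 of 6, 1 of 8 and 3 of 9. DESeq2 called 0, 2, 1 and 0 of these, and limma-voom 0, 1, 0 and 0. Their part in the difference of Nlrc5 was not tested.

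The third comparison asked what blocking the IL-21 receptor on top of PD-1 changed in aged lungs. No member was called by edgeR, beside 4.67% of all genes called higher, 4.35% lower and 9.02% either way. At an unadjusted p under 0.05 there were 2 of 9 members, H2-K1 and B2m, beside 26.4% of all genes. H2-K1 averaged 1556 ± 239 CPM in the combination group and 2078 ± 277 CPM in aged anti-PD-1 lungs (SD, n = 3 each), a difference of -0.42 ± 0.15 (edgeR adjusted p 0.0997, 95% interval -0.75 to -0.09). It was the 1 member whose combination libraries lay wholly below the aged anti-PD-1 libraries, beside 16.5% of all genes. B2m stood at -0.36 ± 0.17 (edgeR adjusted p 0.185). DESeq2 called H2-K1 (adjusted p 0.0470) and not B2m (0.132). Over all alternatives the adjusted p ran from 0.0181 to 0.284 for H2-K1 and from 0.0387 to 0.426 for B2m, in both cases lowest with library totals alone, a scaling that moved the median of all genes to -0.21.

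Nlrc5 stood at -0.30 ± 0.20 and Tap1 at -0.23 ± 0.21, Tap2 at -0.22 ± 0.14 and Tapbp at -0.19 ± 0.13. Psmb9 stood at -0.09 ± 0.18, Psmb8 at 0.02 ± 0.18 and H2-D1 at 0.03 ± 0.14. H2-D1 and Psmb8 were the 2 positive values of the 9, beside 48.9% of all genes, and both were negative, at -0.17, with library totals alone. The intervals were wide: for Nlrc5 the 95% interval ran from -0.73 to 0.12. The median of the members was -0.22, and that of all genes -0.01.

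Around the members, Erap1 (-0.55 ± 0.14, edgeR adjusted p 0.0261) and Ganab, a glucosidase that trims the sugars of new heavy chains (-0.30 ± 0.09, 0.0470), fell, which is 2 of 8 loading and trimming genes with 0 higher. Erap1 had 42.0, 29.1 and 34.7 CPM in the combination and 50.5, 44.9 and 59.4 CPM in the aged anti-PD-1 libraries. H2-T24 fell (-0.78 ± 0.16, edgeR adjusted p 0.0143), with 20.1, 18.4 and 19.2 CPM in the combination and 37.5, 29.4 and 32.3 CPM in the aged anti-PD-1 libraries, and was the 1 of 17 other heavy chain genes called. Relb rose (0.50 ± 0.10) and Creb1 fell (-0.43 ± 0.10) among the 17 regulators. Of the 14 genes on the class I receptor list Lilrb4a, whose binding to class I was not examined here, rose (0.96 ± 0.23). Of these, Ganab and Lilrb4a lost the call without any 1 of the 6 libraries, Erap1 and Creb1 without 4, H2-T24 without 2 and Relb without 1. EdgeR called 0 genes in 4 lists, in which the unadjusted p was under 0.05 for 5 of 14 constitutive proteasome genes, 0 of 4 immunoproteasome partners, 2 of 6 interferon gamma pathway genes and 1 of 11 class II genes. DESeq2 called 3, 0, 1 and 0 genes of these lists, and limma-voom 0. The nearest to an edgeR call were Psma7 (0.29 ± 0.09) and Psma6 (0.32 ± 0.11), Pomp (0.21 ± 0.10) and Psme1 (0.26 ± 0.14), Jak2 (0.35 ± 0.12) and Socs1 (0.65 ± 0.29), and H2-DMb2 (0.50 ± 0.18) and Ciita (-0.46 ± 0.22). Of 6 blood endothelial markers 4 fell (1044 to 1427 CPM in the combination, 1660.4 to 1989.9 CPM in aged anti-PD-1 lungs), of 7 dendritic cell markers 2 fell (104 to 129 CPM in the combination, 119.6 to 166 CPM in aged anti-PD-1 lungs), and of 5 leukocyte markers 1 rose (1831 to 2035 CPM in the combination, 1374 to 1709 CPM in aged anti-PD-1 lungs). Of 5 fibroblast markers Dcn rose (0.61 ± 0.14), with overlapping sums (1218 to 1365 CPM in the combination, 929.9 to 1417 CPM in aged anti-PD-1 lungs). No B cell marker was called by edgeR, DESeq2 or limma-voom (1 of 6 at an unadjusted p under 0.05), and their sums overlapped (335 to 549.7 CPM in the combination, 357 to 391 CPM in aged anti-PD-1 lungs). Their part in the values of the members was not tested.

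The fourth comparison set the combination against control antibody in aged mice. EdgeR called none of the 18556 genes, members included. At an unadjusted p under 0.05 there were 1228 genes, which is 6.62% of all, and 2 of 9 members, Psmb9 and Nlrc5. DESeq2 called 68 genes and limma-voom 0, and neither called a member. Psmb9 averaged 82.1 ± 15.9 CPM in the combination and 62.1 ± 5.36 CPM in the aged control group, a difference of 0.41 ± 0.18 (edgeR adjusted p 0.752). Nlrc5 averaged 46.0 ± 14.2 CPM in the combination and 33.0 ± 3.91 CPM in the aged control group, a difference of 0.48 ± 0.20 (edgeR adjusted p 0.728). Nlrc5 was also the 1 member whose combination libraries lay wholly above the control libraries, beside 3.92% of all genes, and 0 members lay wholly below, beside 5.78%. Its lowest combination library (37.5 CPM) was just above its highest control library (36.8 CPM).

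Tap1 stood at 0.34 ± 0.21 and Psmb8 at 0.27 ± 0.18. The chain genes and the rest of the loading machinery were close to 0, at -0.06 ± 0.15 for H2-K1, -0.06 ± 0.14 for H2-D1, -0.10 ± 0.17 for B2m, -0.02 ± 0.13 for Tapbp and -0.01 ± 0.14 for Tap2. With RLE factors Tap2 was at 0.01, above 0. Their 95% intervals, not adjusted for the number of genes, were -0.38 to 0.27 for H2-K1, -0.36 to 0.25 for H2-D1 and -0.45 to 0.26 for B2m. Differences within these ranges, in either direction, are compatible with these libraries. Of the 9 differences 4 were positive, beside 48% of all genes. Members' and all genes' medians were both -0.01. In the 8 pathway lists edgeR and limma-voom called 0 genes and DESeq2 called 3, all in class II. An unadjusted p under 0.05 was found for 6 of 11 class II genes, 3 of 17 other heavy chain genes, 1 of 6 interferon gamma pathway genes and 0 of the other 5 lists. The values nearest to a call, none of them called, included H2-T10 (0.45 ± 0.14), Hspa5 (-0.27 ± 0.17), Psme1 (0.25 ± 0.14), Nfyb (0.17 ± 0.09), Irf8 (0.24 ± 0.14), Ifngr1 (-0.25 ± 0.11), Klrc1 (0.88 ± 0.46), Cd8b1 (0.62 ± 0.38), H2-Oa (0.71 ± 0.17) and H2-DMb2 (0.72 ± 0.18). B cell markers had an unadjusted p under 0.05 for 5 of 6, with a median difference of 0.67, and none was called by edgeR, DESeq2 or limma-voom. Their sums overlapped (335 to 549.7 CPM in the combination, 178 to 340.4 CPM in the aged control). The same p was found for 1 of 5 leukocyte and 1 of 7 dendritic cell markers. Their part in these values was not tested.

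**Figure D3:**
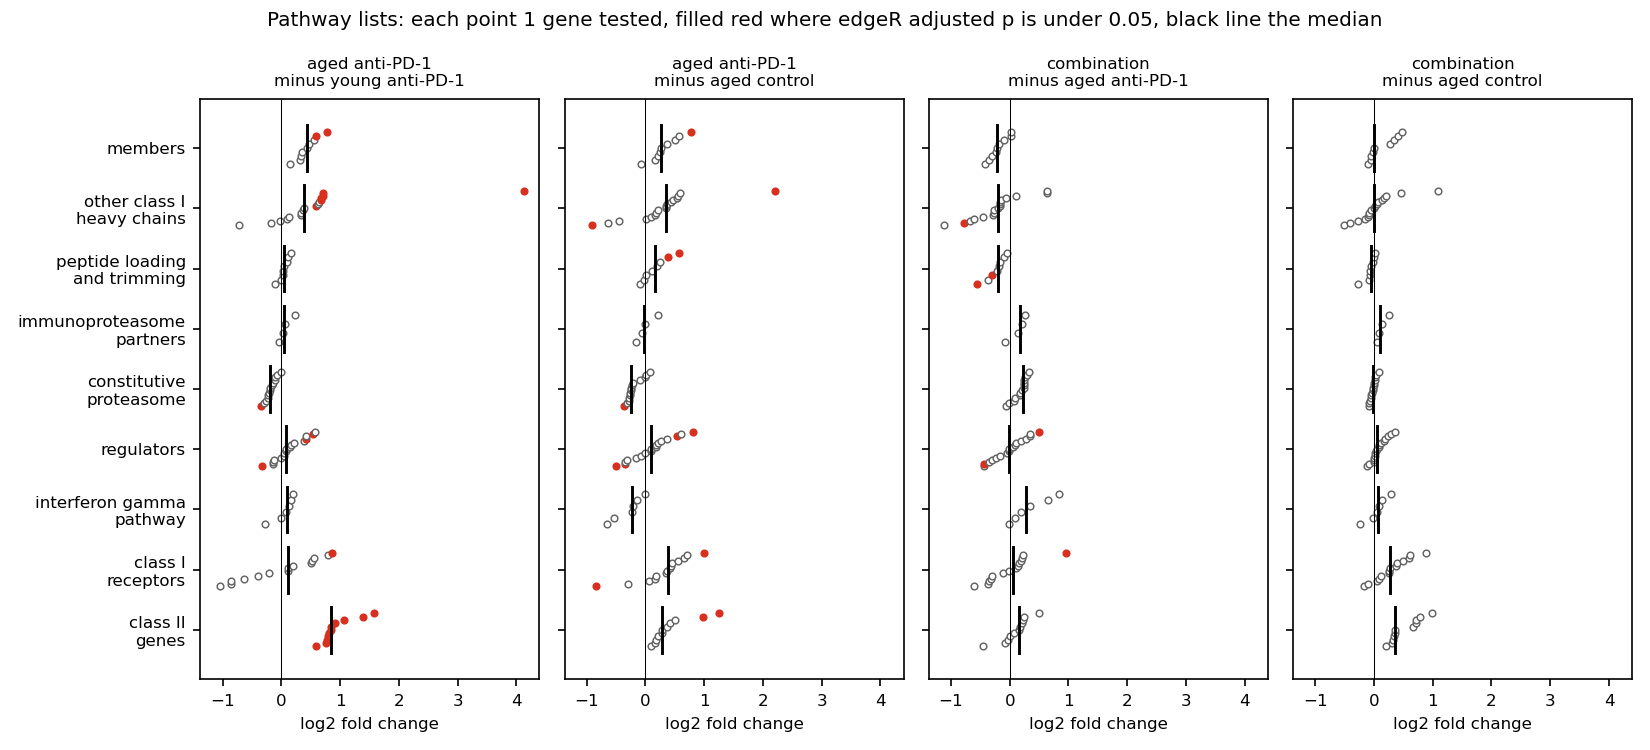
Fitted log2 fold change (x axis) of every gene tested in the 9 members and the 8 pathway lists (y axis) in the 4 comparisons (panels); each point is 1 gene, filled red where the edgeR adjusted p is under 0.05, and black lines are medians. The class II genes are all filled in the first panel (median 0.84), where 2 of the 9 members are filled (median 0.44), and no point is filled in the last panel.

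The 9 genes mostly went up and down together from library to library, inside the groups as well as between them. In the combination group replicate 1 was the highest and replicate 3 the lowest library for 9 of 9 genes. In the aged anti-PD-1 group replicate 3 was the highest for 9 of 9, and in the young group replicate 1 was the highest for 9 of 9. In the aged control group replicate 2 was the highest for 7 and replicate 1 for the others, Tap2 and Tapbp. The lowest library was not shared in these groups. It was replicate 1 for 3 and replicate 2 for 6 genes in aged anti-PD-1. In the aged control it was replicate 1 for 4 and replicate 3 for 5, and in the young group replicate 2 for 6 and replicate 3 for 3. How many of all genes share these orders was not counted, so the orders are not shown to be particular to the members. Averaged over the 9 genes, each centred on its own mean over 12 libraries, log2 CPM was 0.34, -0.02 and -0.21 in the combination libraries, 0.12, 0.12 and 0.49 in the aged anti-PD-1 libraries, -0.12, 0.01 and -0.14 in the aged control libraries and 0.03, -0.33 and -0.29 in the young libraries. The gap between combination replicates 1 and 3 (0.34 and -0.21) was thus wider than that between any pair of group means. Within groups the SD of log2 CPM was smallest for Tapbp (0.17) and H2-D1 (0.17) and largest for Tap1 (0.31) and Nlrc5 (0.28). Over all 12 libraries the range on the log2 scale was 0.60 for Tapbp and Tap2 and 1.31 for Nlrc5.

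The genes whose library pattern was most like the mean pattern of the 9 were, among 13364 genes ranked, mostly class I genes or their neighbours. Likeness was the root mean square difference in centred log2 CPM over 12 libraries, which had a median of 0.318 over the genes ranked and was 0.1002 for H2-K1 itself and 0.202 for Nlrc5. Members are part of the mean they are set against, which lowers their values, and the genes ranked are not. The values of members and of ranked genes are thus not on equal terms. The nearest was the nonclassical heavy chain gene H2-T22 (0.0599), followed by Gm15821 (0.0860), H2-T23 (0.0931), the proton pump subunit gene Tcirg1 (0.0954), H2-M3 (0.0988), the ADP-ribosyltransferase family gene Parp9 (0.107), Daxx (0.111) and Dpy19l1 (0.116). H2-T22 had 192, 161 and 135 CPM in the combination, 155, 175 and 219 in aged anti-PD-1, 141, 160.0 and 131 in the aged control and 164, 122 and 131 in the young libraries, and like the members it was highest in replicates 1, 3, 2 and 1 of these groups. H2-T22, H2-T23 and H2-M3 lie on chromosome 17 with 7 of the 9 members. Gm15821 lies inside Tap2 on the opposite strand and Daxx next to Tapbp. The rule took likeness over the same libraries that show the group differences, so these genes' own differences are no separate evidence.

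**Figure D4:**
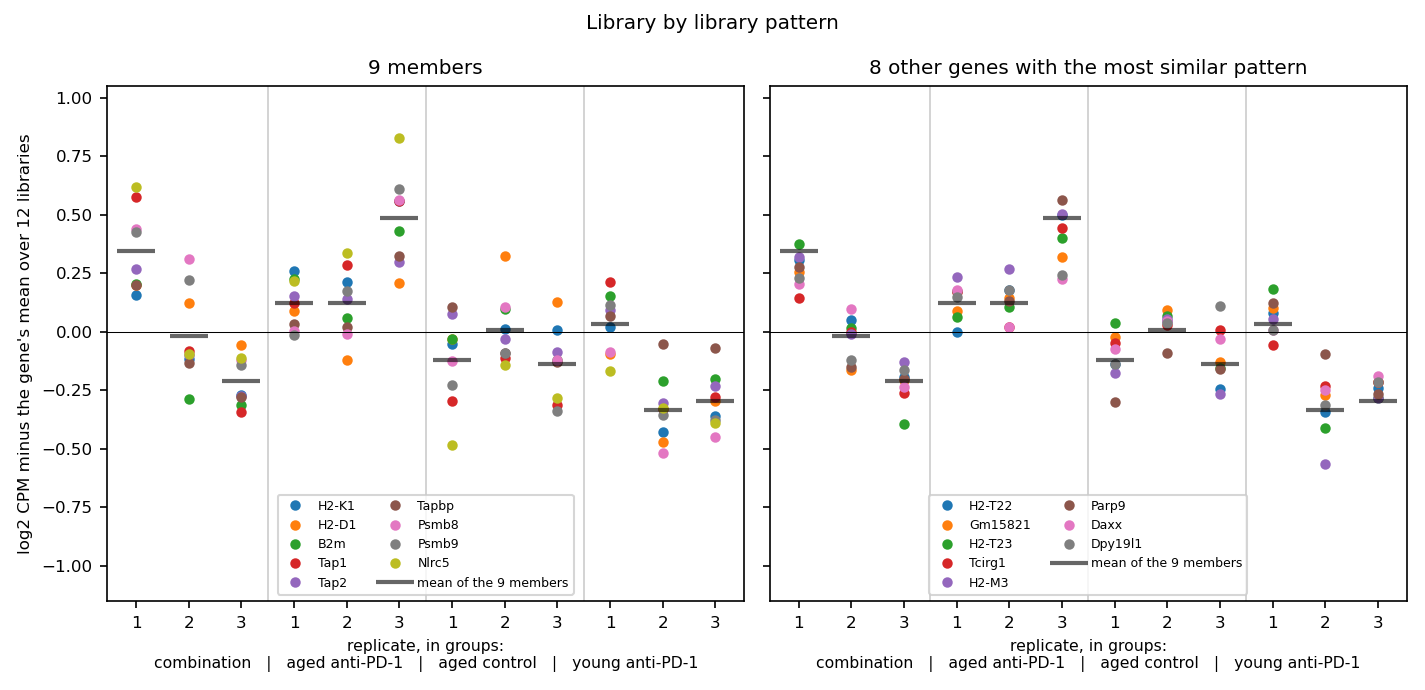
Log2 CPM minus the gene's mean over 12 libraries (y axis) in each library (x axis, replicates 1 to 3 within groups) for the 9 members (left) and the 8 other genes with the most similar pattern (right); points are genes and grey bars the mean of the 9 members. The bars are highest in aged anti-PD-1 replicate 3 (0.49) and combination replicate 1 (0.34) and lowest in young replicates 2 and 3 (-0.33 and -0.29).

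Ratios within a library do not depend on how libraries are scaled. In the immunoproteasome Psmb9 takes the place of Psmb6, Psmb8 that of Psmb5 and Psmb10 that of Psmb7. The log2 ratio of Psmb9 to Psmb6 CPM was -0.16, -0.68 and -0.61 in the combination, -0.26, -0.24 and 0.04 in aged anti-PD-1, -1.11, -0.84 and -0.89 in the aged control and -0.53, -0.98 and -1.14 in the young libraries. It was higher in every aged anti-PD-1 library than in any aged control or young library, by 0.79 against control and 0.73 against young on average. Every combination library was above every control library, by 0.46 on average, and the combination overlapped the aged anti-PD-1 group (difference -0.33). The exact two-sided permutation p was 0.1 for the 3 comparisons without overlap, the smallest that 3 libraries against 3 allow, and 0.3 for the combination against aged anti-PD-1. In aged anti-PD-1 lungs Psmb6 itself stood at -0.32 ± 0.13 against control and -0.26 ± 0.13 against young, neither called. These ratio differences thus hold a lower Psmb6 as well as a higher Psmb9.

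For Psmb8 over Psmb5 the log2 ratio was 1.93, 1.51 and 1.48 in the combination, 1.81, 1.52 and 2.02 in aged anti-PD-1, 0.93, 1.59 and 1.42 in the aged control and 1.28, 1.04 and 0.91 in the young libraries. The aged anti-PD-1 libraries were all above the young ones (0.71, exact permutation p 0.1) and overlapped the control libraries (0.47, 0.2). For Psmb10 over Psmb7 it was -0.24, -0.27 and -0.53 in the combination, -0.32, -0.13 and 0.19 in aged anti-PD-1, -0.39, -0.56 and -0.62 in the aged control and -0.34, -0.72 and -0.77 in the young libraries. Here the aged anti-PD-1 libraries were above the young (0.52, exact permutation p 0.1) and the control libraries (0.43, 0.1). The combination against aged anti-PD-1 gave -0.14 (p 0.5) and -0.26 (p 0.3), and against control 0.33 (p 0.4) and 0.17 (p 0.2), by the same exact test. Adjusted over the 16 tests of ratios, the smallest p was 0.178, so none passed 0.05, and a design of this size could not have passed it. The constitutive subunits were themselves lower in aged anti-PD-1 lungs, without being called. Psmb5 stood at -0.17 ± 0.14 against young and -0.25 ± 0.14 against control. Psmb7 stood at -0.29 ± 0.10 against young and -0.22 ± 0.10 against control.

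**Figure D5:**
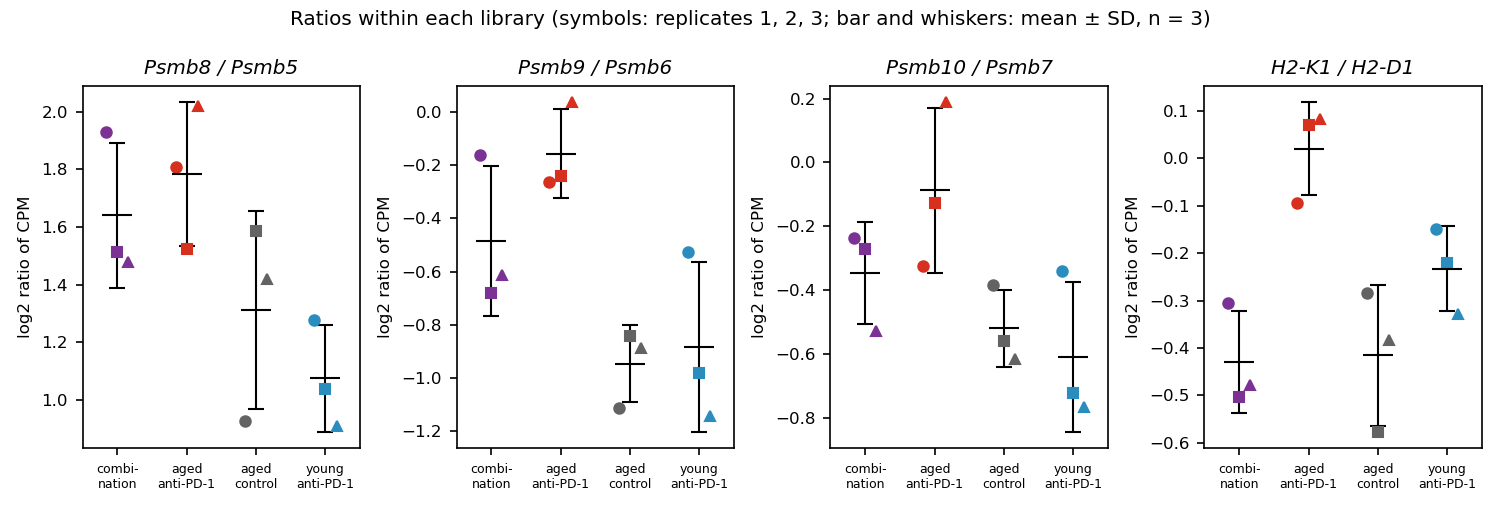
Log2 ratio of CPM within each library (y axis) by group (x axis) for 3 immunoproteasome subunits over the constitutive subunit each replaces and for H2-K1 over H2-D1; symbols are replicates 1, 2 and 3, bars and whiskers the mean ± SD (n = 3). For Psmb9 over Psmb6 the aged anti-PD-1 libraries (-0.26 to 0.04) lie above all control (-1.11 to -0.84) and young (-1.14 to -0.53) libraries.

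Several members overlap other annotated genes. The overlaps given are of whole gene spans, introns included, so the exons shared can be far shorter. Gm20496 has 663 and Gm15821 1210 bases of exon in all. The sources used here do not say whether counting used the strand. Reads where exons of opposite strands overlap may therefore not be told apart. Strand would not separate Tapbp from Zbtb22, which lies on the same strand. Tap1 and Psmb9 overlap by 212 bases at their starts. The antisense gene Gm20496 (60.05 CPM on average) overlaps Psmb8 by 2139 and Tap2 by 1923 bases, and Gm15821 (31.6 CPM) lies over 3148 bases of Tap2. Tapbp overlaps Zbtb22 on its own strand by 3421 bases (27.1 CPM) and the antisense gene Gm19412 by 1011 bases (30.7 CPM). B2m lies within Patl2 (0.101 CPM) and Nlrc5 overlaps the noncoding gene 9330175E14Rik by 748 bases (1.801 CPM), both on the opposite strand and both far below the member. H2-K1 and H2-D1 overlap no other gene in the table.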

How the data were processed

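The deposited table holds raw read counts per gene, made by the authors with bcl2fastq 1.8.4, Trimmomatic, HISAT2, featureCounts 1.6.3 and the mm10 genome, per the submitters' processing notes. The annotation release, options and strand setting are not given in the sources used here. Per the labels' protocols, poly(A) RNA of minced lung was made into directional libraries. Counts were fitted as deposited with edgeR 4.0.16 (R 4.3.3): filterByExpr (minimum count 10, minimum total 15) kept 18556 genes, scaling was TMM, and 1 robust quasi-likelihood fit with 4 group means covered the 12 libraries (8 residual degrees of freedom). P-values are two-sided and Benjamini-Hochberg adjusted over all genes tested, with calls at 0.05. Depth was 16021877 to 22058620 counts a library, and the common biological coefficient of variation was 0.156. The steps were tested on simulated counts first. Alternatives were DESeq2 1.42.0, limma-voom (limma 3.58.1), other scalings and filters, fits of only the libraries compared, a replicate block and leaving out each library. CPM per kilobase used exon lengths of GENCODE M21, and promoters came from RefSeq tables (Python 3.11.15).

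The members, gene lists and marker lists were chosen with earlier results of these data known. Named are all members in each comparison and, from each pathway list, up to 4 called genes with the largest change or the 2 uncalled genes with the smallest p. Also named are the 8 genes most like the members' mean pattern, ranked where the average log2 CPM reached 2. Marker genes and genes overlapping a member stand only as values beside results. Replicate numbers come from the labels, which do not say that they pair samples. A gene of the regulator list is not reported here by name or value.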

Additional observations from a re-analysis of the deposited data

How the results depend on the processing

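Over the alternatives run on the 9 genes in the 4 comparisons, 488 of 540 fitted differences kept their direction and their side of the threshold, 13 lost a call, 13 gained one and 26 changed sign. Each that changed sign was within 0.0912 of 0 in the fit reported above. With library totals alone the members called were 2 in aged anti-PD-1 against aged control and 2 in the combination against aged anti-PD-1. That scaling called 3038 genes there, 361 higher and 2677 lower, against 866 higher and 808 lower with TMM, and it moved the median of all genes to -0.21. In aged anti-PD-1 against aged control it called 1400 genes higher and 559 lower, against 990 and 1035 with TMM. Without a filter the members called were 1 in aged against young anti-PD-1 and 0 in aged anti-PD-1 against aged control, and 11 genes were called in the combination against aged control. With only the libraries of the groups compared, the members called were 4 in aged against young anti-PD-1 and 2 in aged anti-PD-1 against aged control, where 881 genes were called. DESeq2 called 2 members in aged anti-PD-1 against aged control, 1 in the combination against aged anti-PD-1, with 2528 genes, and 68 genes in the combination against aged control. The cause of these differences was not tested. Values that changed sign with another scaling or tool were H2-D1 at 0.0238 in aged anti-PD-1 against aged control and Psmb8 at -0.174 and H2-D1 at -0.169 in the combination against aged anti-PD-1, all with library totals alone. Tap2 in the combination against aged control was 0.00727 with RLE factors, 0.00730 with DESeq2, 0.0117 with scaling without immunoglobulin, haemoglobin and mitochondrial genes, and 0.00975 in the fit of only these groups. Leaving out 1 library at a time gave 1160 to 2237 genes and 0 to 4 members in aged against young anti-PD-1, and 607 to 1995 genes and 0 to 1 members in aged anti-PD-1 against aged control. It gave 260 to 1439 genes in the combination against aged anti-PD-1 and 0 to 13 genes in the combination against aged control. Differences that changed sign when 1 library was left out ranged, in the combination against aged anti-PD-1, over -0.102 to 0.232 for Psmb8, -0.0598 to 0.103 for H2-D1 and -0.229 to 0.106 for Psmb9. In the combination against aged control they ranged over -0.172 to 0.0766 for Tapbp, -0.174 to 0.108 for Tap2, -0.183 to 0.0378 for H2-K1 and -0.138 to 0.0416 for H2-D1, and in aged anti-PD-1 against aged control over -0.164 to 0.0154 for H2-D1. The log2 ratio of H2-K1 to H2-D1 in the combination against aged control ranged over -0.0951 to 0.0509.

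Libraries with the same replicate number shared no strong deviation: over 18 pairs of such libraries in different groups, the correlation of deviations from the group means had a median of -0.012 (-0.169 to 0.171). With so few libraries a group, this cannot decide whether the numbers pair samples. With the replicate block 2493, 1702, 1455 and 0 genes were called in the 4 comparisons, in the order reported, against 2830, 2025, 1674 and 0 without it, and 0 of 36 member results changed their call.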

Other observations

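The classical heavy chain genes H2-K1 and H2-D1 were nearest to each other in CPM in the aged anti-PD-1 libraries, where H2-K1 was highest relative to H2-D1. The log2 ratio of H2-K1 to H2-D1 CPM was -0.31, -0.50 and -0.48 in the combination libraries, -0.09, 0.07 and 0.08 in the aged anti-PD-1 libraries, -0.28, -0.58 and -0.38 in the aged control libraries and -0.15, -0.22 and -0.33 in the young anti-PD-1 libraries. All 3 aged anti-PD-1 values were above the 9 others. The mean difference was 0.25 in aged against young anti-PD-1, 0.43 in aged anti-PD-1 against aged control and -0.45 in the combination against aged anti-PD-1, each with an exact two-sided permutation p of 0.1, the smallest that 3 libraries against 3 allow (0.178 adjusted over 16 ratio tests). In the combination against aged control it was -0.01 (exact permutation p 0.9). The ratio was chosen after the values were seen, the 3 differences share the aged anti-PD-1 libraries, and reads shared between such close paralogs make the split between the 2 genes uncertain. Gm20496, the antisense gene over Psmb8 and Tap2, had 75.2, 68.6 and 56.6 CPM in the combination, 61.6, 57.7 and 91.6 in aged anti-PD-1, 47.7, 66.2 and 54.7 in the aged control and 55.8, 40.9 and 44.0 in the young libraries, with the same library highest in each group as for Psmb8. Its difference in aged against young anti-PD-1 was 0.58 ± 0.19 (edgeR adjusted p 0.0493).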
